A study of Arabidopsis thaliana with 28 samples.

Results

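FLC (AT5G10140) and the 5 MADS AFFECTING FLOWERING genes, MAF1/FLM (AT1G77080), MAF2 (AT5G65050), MAF3 (AT5G65060), MAF4 (AT5G65070) and MAF5 (AT5G65080), form a small family of MADS-box genes. They were taken by locus name, and all 6 members were found among the 33557 genes of the deposited expression table. Their expression, their histone marks and the Hi-C contacts of their genome bins of 50 kb were compared between diploid Col-0 and the autotetraploid 4 × Col-0, a line of duplicated genome that was made from Col-0 with colchicine. The question was whether genome duplication goes along with changes of chromatin and expression at these genes. Col-0 has 2 and 4 × Col-0 has 4 copies of each chromosome, and both genotypes were wild type for the family.

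All plants were seedlings of 10 days, grown on medium with 16 h of light and 8 h of dark after 3 days at 4 °C, a cold treatment of the seeds that both genotypes had. Per the study's methods, aerial parts were harvested for all assays, while the labels say seedling. Each genotype had 2 Hi-C libraries, 2 H3K27me3 and 2 H3K4me3 ChIP-seq libraries, while anti-H3 ChIP-seq had a single library for each genotype. RNA-seq had 3 replicates per genotype, but the table holds 1 FPKM value (fragments per kilobase of gene, scaled to the depth of the library) per gene and genotype, so expression has no replicate error and no test. The labels do not say whether libraries came from separate plantings, so p-values measure the spread between these libraries only.

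FLC encodes a repressor of flowering. In Arabidopsis its protein acts with other MADS-box proteins such as SVP at flowering genes such as FT and SOC1, and prolonged cold silences the gene through Polycomb proteins, which place H3K27me3, while H3K4me3 marks the start of active genes. Col-0 carries a loss-of-function allele of FRI, the main activator of FLC, and has low FLC levels as a background. FLM, the MAF1 gene, and MAF2 act as repressors in the regulation of flowering by temperature, and MAF3, MAF4 and MAF5 are further repressors whose genes stand in a row with MAF2.

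The family lies at 3 places of the TAIR10 genome. FLC is on the minus strand at chr5:3173497-3179448, FLM on the plus strand at chr1:28955637-28960096. MAF2 to MAF5 follow each other on the plus strand of chromosome 5, from 25982254, the start of MAF2, to 26002465, the end of MAF5. The first intron is long in 5 of the members, with 3493 bp in FLC, 2470 bp in FLM, 2081 bp in MAF2, 1959 bp in MAF3 and 2955 bp in MAF5, while that of the chosen MAF4 transcript has 403 bp. Transcripts were those with the longest coding sequence in RefSeq's annotation of TAIR10.1, whose chromosomes 1 to 5 are those of TAIR10. Gene starts, and distances from them, are those of the deposited expression table, while exons and introns are RefSeq's. These can differ, as at MAF5, with a table start at 25997504 and a RefSeq exon 1 from 25997594.

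The start of the coding sequence, which encodes the first part of the DNA-binding MADS domain, shows how close the members are. Below are 60 coding bases of each, with capitals at the 45 positions where all 6 members have the same base. They begin at coding base 1, except in MAF5, whose annotated reading frame is longer and where they begin at coding base 22.
FLC: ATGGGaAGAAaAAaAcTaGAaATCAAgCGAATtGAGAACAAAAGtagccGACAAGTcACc
MAF1/FLM: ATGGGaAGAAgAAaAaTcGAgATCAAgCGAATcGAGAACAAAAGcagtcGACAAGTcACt
MAF2: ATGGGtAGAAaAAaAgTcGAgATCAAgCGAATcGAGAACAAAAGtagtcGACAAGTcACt
MAF3: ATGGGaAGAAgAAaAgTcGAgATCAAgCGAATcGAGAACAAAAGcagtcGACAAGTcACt
MAF4: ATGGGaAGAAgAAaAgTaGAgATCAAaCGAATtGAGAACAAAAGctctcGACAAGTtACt
MAF5: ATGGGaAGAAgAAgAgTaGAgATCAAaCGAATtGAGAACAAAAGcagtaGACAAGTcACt

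In this stretch the MAF genes differed from FLC at 7 (MAF2) to 10 (MAF4) bases. Over the whole coding sequence, MAF2 and MAF3 were the closest pair, with 93.6% identical bases in a global alignment. By this percentage, FLC ranged from 61.8% with MAF4 to 75.1% with MAF3, next to 74.9% with MAF2. Columns with gaps are counted in it, so the length of the chosen transcripts enters. By the number of identical bases the order was another one, with 460 shared with FLM, 449 with MAF3, 436 with MAF4 and 420 with MAF5. The nearest and furthest relatives of FLC were thus not settled. Reads of near-identical genes can be assigned to the wrong copy, and so the share of windows of 50 bases that occur unchanged in the transcript of another member was counted. It was 0% for FLC, MAF4 and MAF5, 1.15% for FLM, 1.27% for MAF2 and 2.26% for MAF3.

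A further feature that the members share is the 6-base sequence TGCATG, the RY element, which in FLC is known as a binding site of the repressor VAL1 in the first intron. Searched on both strands, where it reads CATGCA in the other direction, it occurred between 500 and 650 bases past the gene start in all 6 members, against 4.59% of 26697 protein-coding genes in the same window. The window was set after the positions were seen. The elements are shown in capitals with 20 bases on each side, in the direction of the gene.
FLC, first element, chr5:3178841-3178886: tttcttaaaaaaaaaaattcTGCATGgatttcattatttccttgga
FLC, next element, chr5:3178808-3178853: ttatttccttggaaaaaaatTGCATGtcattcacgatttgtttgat
MAF1/FLM, chr1:28956157-28956202: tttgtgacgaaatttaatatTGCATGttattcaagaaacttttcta
MAF2, chr5:25982871-25982916: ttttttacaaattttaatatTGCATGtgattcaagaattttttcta
MAF3, chr5:25987984-25988029: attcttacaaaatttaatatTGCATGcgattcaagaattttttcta
MAF4, chr5:25992777-25992822: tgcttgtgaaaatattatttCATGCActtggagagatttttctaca
MAF5, chr5:25998071-25998116: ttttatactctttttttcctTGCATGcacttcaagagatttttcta

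FLC had such elements 583 and 616 bases past its start, both in intron 1. The first bases of those in FLM, MAF2 and MAF3 lay 541, 638 and 576 bases past the start, those in MAF4 and MAF5 at 555 and 588 bases. In MAF5 the element continues into TGCATGCA, so that matches on both strands overlap. These sites were set beside the H3K27me3 peaks below. Over the whole gene there were 9 matches in MAF5, 3 in FLC, 2 each in FLM and MAF4, and 1 each in MAF2 and MAF3.

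FLC was the member with the largest expression difference. It was listed at 1.70 FPKM in Col-0 and at 5.48 FPKM in 4 × Col-0, a ratio of 3.23. On the scale of log2(FPKM + 1), where 1 was added so that values near 0 do not give large ratios, the difference was 1.26. It was the only member past 2-fold on that scale, a limit that 0.604% of the 33278 nuclear genes passed upward and 0.4% downward. Of the 18346 genes of at least 1 FPKM in a genotype, 1.1% passed it upward and 0.725% downward, and 0.278% had a higher ratio than FLC.

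**Figure D1:**
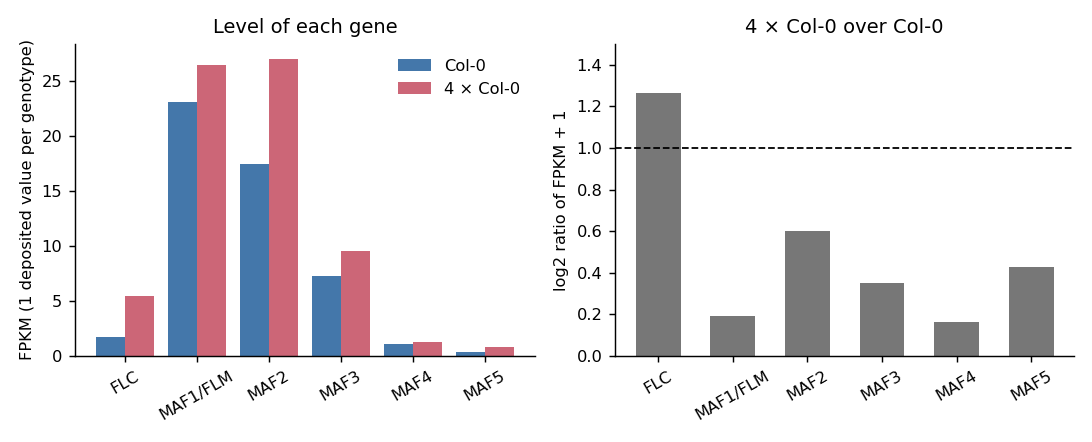
Left, FPKM of the 6 genes in Col-0 and 4 × Col-0, 1 deposited value per genotype (bars, without error because the replicates are not separate in the table). Right, the log2 ratio of FPKM + 1 in 4 × Col-0 over Col-0, with a dashed line at 2-fold, which FLC passed at 1.26 and the MAF genes, at 0.16 to 0.60, did not.

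The MAF genes were each listed higher in 4 × Col-0 as well, with smaller ratios. MAF2, a repressor of flowering after short cold, was listed at 17.4 FPKM in Col-0 and 26.99 FPKM in 4 × Col-0, a log2 difference of 0.60. FLM, whose splice forms respond to temperature, had 23.0 and 26.5 FPKM, a log2 difference of 0.19, and the table gives no values for single splice forms. MAF3 had 7.29 and 9.57 FPKM, a log2 difference of 0.35. MAF4 and MAF5 were near the low end, MAF4 at 1.06 and 1.30 FPKM with a log2 difference of 0.16, and MAF5 at 0.340 and 0.799 FPKM with a log2 difference of 0.43.

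The order of levels in Col-0 was FLM, MAF2, MAF3, FLC, MAF4 and MAF5, and FLM stood 13.6 times above FLC per unit of gene length. In 4 × Col-0, MAF2 and FLM were at nearly the same level, and no spread is known by which to separate neighbours in either order. FLC made up 3.33% of the summed FPKM of the family in Col-0 and 7.76% in 4 × Col-0. All 6 members were higher in 4 × Col-0, and the median of their log2 differences was 0.39, beside 0.08 over the nuclear genes of at least 1 FPKM. FPKM values are relative to the other RNA of a sample, so fewer cells that express a gene and less RNA per cell cannot be told apart, and RNA per cell or per gene copy was not measured.

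The antisense RNA locus AT5G01675, annotated as a long non-coding RNA at chr5:3173371-3179600 on the other strand of FLC, has no row in the table. The labels do not state that strand was used in counting, so reads of FLC and of its antisense partner cannot be told apart in the FLC value.

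In the neighbourhood of FLC, 1 further gene passed 2-fold, by a small margin, and another fell just short of it. Values this close to the limit can cross it under another scaling, which was not checked for the neighbours. AT5G10150, annotated as UPSTREAM OF FLC, was listed at 6.64 FPKM in Col-0 and at 14.7 FPKM in 4 × Col-0, a log2 difference of 1.04. AT5G10130, the gene on the other side of FLC, annotated as a pollen Ole e 1 allergen and extensin family protein, had 14.8 and 6.92 FPKM, a log2 difference of −0.99. MIPS3 (AT5G10170), a myo-inositol-1-phosphate synthase gene, had 10.7 and 6.40 FPKM, a log2 difference of −0.66. Values of the other 3 genes within 3 annotated genes of FLC differed by 0.05 to 0.45 on that scale. Next to FLM and next to the MAF2 to MAF5 cluster, the 3 genes on each side had log2 differences between −0.06 and 0.38, with 3 of those near FLM listed at 0 in both genotypes.

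The genes known to act on or with the family were followed in 5 lists of 45 genes in all. None of them passed 2-fold, 26 were higher and 17 lower in 4 × Col-0. The median log2 difference was 0.09, beside 0.08 over the nuclear genes of at least 1 FPKM. In the FRIGIDA complex, which activates FLC, all 5 genes were higher, by 0.09 to 0.64, with the largest value at FLX from 4.31 to 7.25 FPKM. FRI itself, with the loss-of-function allele of Col-0, had 3.44 and 4.33 FPKM. Of 10 genes for chromatin activators of FLC, such as the PAF1 complex and the SWR1 complex, 6 were higher and 4 lower, with a median of 0.18. VIP4, a PAF1 complex gene, had the highest log2 difference of them, 0.62, at 10.4 and 16.5 FPKM. With both genotypes scaled to the same upper quartile of FPKM, the median was 0.16 for the FRIGIDA complex and 0.12 for the activators. SEF, an activator gene, then turned from 0.06 to −0.005.

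The autonomous pathway, whose genes keep FLC low, had 2 genes higher and 6 lower, with a median of −0.06. LD had the highest log2 difference of these 8, 0.75, at 1.63 and 3.41 FPKM. FLD, a gene for a histone demethylase homologue, had the lowest, −0.27, at 5.02 and 4.01 FPKM. Among 11 genes of vernalization and Polycomb, 9 were higher, 1 was lower and VIN3, a gene induced by cold, was listed at 0 in both genotypes. VRN2, a Polycomb subunit gene, had 5.57 and 8.85 FPKM, a log2 difference of 0.58, and CLF and SWN, the genes of H3K27 methyltransferases, had 0.13 and 0.39. MSI1 had −0.01.

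Among 11 partners and targets, 4 were higher and 6 lower, with a median of −0.02. SVP, the gene of a partner of FLC and FLM, was the most abundant gene of the lists, at 93.4 and 88.0 FPKM and a log2 difference of −0.09. SOC1, a target that FLC represses, had 18.3 and 23.6 FPKM, a log2 difference of 0.35, and FT, the florigen gene, had 0.436 and 0.484 FPKM. TSF was listed at 0 in both genotypes. AP1 and LFY, genes of the floral meristem, were at 0.032 FPKM or less in both.

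Genes that mark tissues were compared with the labels. RBCS1A, a leaf gene for a Rubisco subunit, was at 9250 and 8695 FPKM, and STM, a shoot meristem gene, at 2.48 and 1.87 FPKM. CAB1, which encodes a light-harvesting protein, was listed at 0 in both, which can be a failed estimate. The root hair genes EXPA7, COBL9 and RHD6 were at 21.5, 3.44 and 1.29 FPKM in Col-0 and 15.3, 2.55 and 1.81 FPKM in 4 × Col-0, although the methods give aerial parts as the tissue, and whether these reads came from roots was not tested. The flower genes AP3 and AG and the seed genes CRU3 and SESA1 were at 0.186 FPKM or less. Their part in the values of the family was not tested.

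H3K27me3 covered nearly all of FLC in each library of both genotypes. The deposited peaks covered 95.9% and 87.2% of the gene in the Col-0 libraries and 99.2% and 85.8% in those of 4 × Col-0, and exon 1 and intron 1 were covered whole in all 4. Summed over peaks as fold enrichment times covered bases per base of gene, the H3K27me3 signal of FLC was 2.36 and 2.49 in Col-0, against 2.48 and 2.28 in 4 × Col-0. The values of the genotypes overlapped. The log2 difference of signal + 1 was −0.02 (SE 0.08, adjusted p = 0.962 with limma over 8372 genes with a peak in 1 library or more and Benjamini-Hochberg adjustment), where 0.251% of the genes were called at 0.05, 0.119% higher and 0.131% lower in 4 × Col-0.

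**Figure D2:**
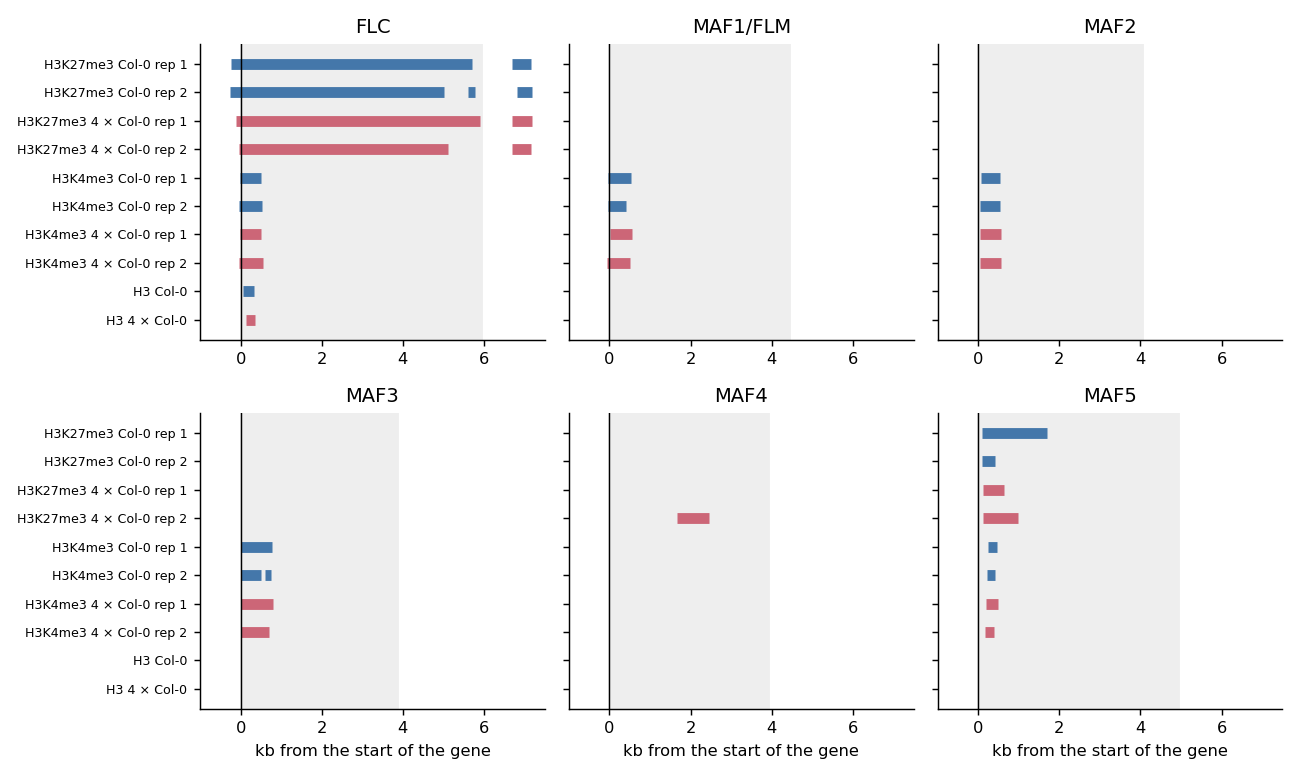
Deposited peaks along the 6 genes in each library, as horizontal bars over the distance in kb from the start of the gene (grey, gene body; blue, Col-0; red, 4 × Col-0). H3K27me3 runs along FLC and covers the start of MAF5, H3K4me3 lies at the start of every member but MAF4, and H3 peaks lie at FLC alone.

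The start-side edge of the H3K27me3 domain of FLC differed between the genotypes. It lay 241 and 259 bp upstream of the gene start in Col-0 and 115 and 48 bp upstream in 4 × Col-0, a mean of 250 ± 12.7 bp against 81.5 ± 47.4 bp (SD, n = 2 each). The groups did not overlap, but an exact permutation test over 4 libraries (two-sided) gave p = 0.333, the smallest value it can give. Of the window from 250 bases before to 50 bases after the start, the peaks covered 97.0% and 100% in Col-0, against 55.0% and 32.7% in 4 × Col-0. Both libraries of 4 × Col-0 were below both of Col-0 at 5.79% of the 6341 genes with cover in this window, and above both at 11.7%. This feature was singled out after its values were seen, and a peak edge is the place where enrichment crossed the caller's threshold, not a measured boundary.

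The sequence in which these edges lie is given here, with the 250 bases upstream of FLC at chr5:3179449-3179698 on the minus strand. Capitals mark CACGTG, the G-box, the only motif with a match out of 6 that were searched on both strands from 250 bases before to 50 after the start. The others were the CArG box bound by MADS proteins, the RY element TGCATG, the GA repeat GAGAGA, the telobox ACCCTAA and the CCAAT box.
FLC upstream: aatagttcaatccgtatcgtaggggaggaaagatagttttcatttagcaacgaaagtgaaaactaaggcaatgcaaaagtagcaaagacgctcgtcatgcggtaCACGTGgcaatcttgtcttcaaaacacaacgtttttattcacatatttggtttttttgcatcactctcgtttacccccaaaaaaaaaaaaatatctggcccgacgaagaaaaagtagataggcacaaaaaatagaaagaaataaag

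The G-box stood in 8.15% of 26696 promoters of the same length, and the peaks of both Col-0 libraries and of neither 4 × Col-0 library covered it. That cover follows from the same peak edges. CCAAT was present in 4 of the members, FLM, MAF2, MAF3 and MAF5, against 50.6% of all promoters, and GAGAGA in MAF2 and MAF3, against 40.7%. The CArG box, TGCATG and ACCCTAA were in none of the 6 windows and in 3.01%, 8.89% and 8.51% of all.

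The study's primer pairs for ChIP-PCR at FLC were located in the genome to set their 9 amplicons beside the peaks. The pair below, numbered 2, amplifies chr5:3179575-3179689, which lies upstream of the start. That amplicon lay within the H3K27me3 peak in both Col-0 libraries and outside it in both of 4 × Col-0. This restates the peak edge described above and is no further result. The peak of Col-0 replicate 1 ended at 3179689, the last base of the amplicon. That of 4 × Col-0 replicate 1 ended at 3179563, shortly before the amplicon. Pair 3 amplifies chr5:3179130-3179273 across the end of exon 1, and lay within H3K27me3 and H3K4me3 peaks in every library of both genotypes.
Pair 2 forward: atccgtatcgtaggggaggaaaga
Pair 2 reverse: gaagacaagattgccacgtgtacc
Pair 3 forward: aaacgtcgcaacggtctcat
Pair 3 reverse: aaacccaggtaaggaaaaggcg

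Amplicons 4, 5 and 6, in the body of FLC, lay within the H3K27me3 domain in all 4 libraries and in no H3K4me3 peak. Amplicon 7, near the end of the gene, was within a peak in Col-0 replicate 2 and 4 × Col-0 replicate 1, was partly covered in Col-0 replicate 1 and was outside in 4 × Col-0 replicate 2. Amplicon 9, beyond the end of the gene, lay within an H3K27me3 peak in all 4 libraries and in no H3K4me3 peak. Amplicons 1 and 8 lay in no peak of either mark. Amplicon 3 was thus the only one of the 9 under both marks.

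MAF5 was the other member with H3K27me3 in every library. Its peak began 91 to 114 bp past the start and covered 32.5% and 6.21% of the gene in Col-0, against 10.54% and 17.5% in 4 × Col-0, with 90.8% to 99.6% of exon 1. Its signal of 0.738 and 0.188 in Col-0 spanned the values of 0.235 and 0.364 in 4 × Col-0. The log2 difference was −0.15 (SE 0.21, adjusted p = 0.859, limma), and it depends on a single library, being 0.13 without Col-0 replicate 1.

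MAF4 had an H3K27me3 peak in 4 × Col-0 replicate 2 alone, 1664 to 2460 bp past the start, which covered 20.3% of the gene at a fold enrichment of 1.80. The other 3 libraries listed none (log2 difference 0.22, SE 0.17, adjusted p = 0.774, limma). FLM, MAF2 and MAF3 had no H3K27me3 peak in any library. Thus 3 of the 6 members entered the test, and none was called. None of them had values without overlap between the genotypes either, as 24.7% of the genes tested had with 4 × Col-0 below and 1045 of the 8372 with 4 × Col-0 above.

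The 2 RY elements of FLC in intron 1 lay within H3K27me3 peaks in all 4 libraries. That of MAF5 near 588 bases was covered in 3 libraries, both of 4 × Col-0 and Col-0 replicate 1. The elements of FLM, MAF2, MAF3 and MAF4 printed with their flanks were in no H3K27me3 peak, and a further match in MAF4, 2283 bases past the start, was in the peak of 4 × Col-0 replicate 2.

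**Figure D3:**
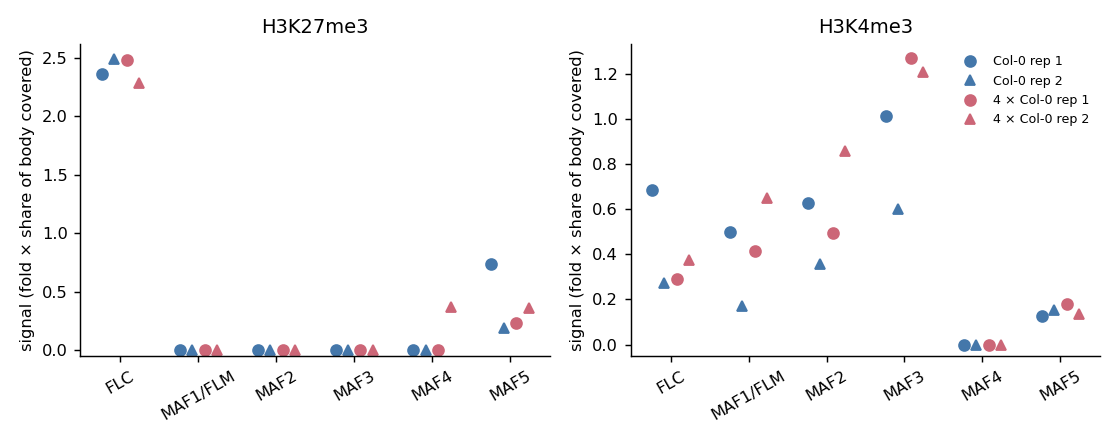
Signal of H3K27me3 (left) and H3K4me3 (right) over the body of each gene, as fold enrichment times the share of the body covered by peaks, with 1 point per library (blue, Col-0; red, 4 × Col-0; circles, replicate 1; triangles, replicate 2). FLC has the highest H3K27me3, from 2.28 to 2.49, and MAF3 has the highest H3K4me3 in each of the 4 libraries, from 0.598 to 1.27.

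H3K4me3 marked the start of 5 members, and the spread within Col-0 was larger than the difference between the genotypes at FLC. The FLC peak spanned from 14 to 37 bp upstream to 491 to 548 bp past the start and covered 8.27% to 9.22% of the gene. Its fold enrichment was 8.01 and 3.10 in Col-0, against 3.54 and 4.07 in 4 × Col-0, so the highest and the lowest value were both of Col-0. The H3K4me3 signal was 0.686 and 0.273 in Col-0, against 0.292 and 0.376 in 4 × Col-0. The log2 difference was −0.14 (SE 0.17, adjusted p = 0.822, limma over 17257 genes), and without Col-0 replicate 1 it was 0.07.

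At MAF3 the H3K4me3 signal was 1.01 and 0.598 in Col-0, against 1.27 and 1.21 in 4 × Col-0, and both libraries of 4 × Col-0 were above both of Col-0, as they were at 21.6% of the genes tested. The log2 difference was 0.32 (SE 0.15, adjusted p = 0.590, limma), which did not pass, and it ranged from 0.15 without Col-0 replicate 2 to 0.49 without Col-0 replicate 1. In Col-0 replicate 2, the MAF3 mark was split into 2 peaks, at 6 to 501 and 593 to 739 bp past the start.

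At MAF2 the H3K4me3 signal was 0.625 and 0.357 in Col-0, against 0.495 and 0.857 in 4 × Col-0, and at FLM 0.499 and 0.170 in Col-0, against 0.415 and 0.647 in 4 × Col-0. Both sets of values overlapped between genotypes, with log2 differences of 0.17 and 0.21. With a library left out these ranged from 0.0094 to 0.32 at MAF2 and from 0.027 to 0.38 at FLM. MAF5 had a small peak of 208 to 300 bp, with a signal of 0.126 and 0.155 in Col-0, against 0.178 and 0.134 in 4 × Col-0 and a log2 difference of 0.02. MAF4 had no H3K4me3 peak in any library, so 5 of the 6 members were tested. None of them was called, and no gene of the 17257 tested was called (0% at an adjusted p of 0.05 with limma), with 734 genes higher and 889 lower at an unadjusted p of 0.05.

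The H3K4me3 lists may not be independent libraries, because their peak names carry the words merge and Rep4, 1 of each per genotype, with a meaning that is not stated. The deposited Col-0 lists also carry replicate numbers swapped against the sample titles, and the numbers used here are those of the titles. In simulated data with the spread of these lists, limma recovered none of 200 H3K4me3 changes of 1 on the log2 scale and 88.0% of changes of 3, so differences of the size seen here could not be shown.

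H3 peaks were present at FLC alone among the members. A peak of 277 bp, at 65 to 341 bp past the start, covered 4.65% of FLC in Col-0, and a peak of 238 bp, at 124 to 361 bp, covered 4.00% in 4 × Col-0. With 1 library per genotype this has no replicate check. Anti-H3 reads were also the control against which the peaks of both marks were called, and the part of the H3 peak in the mark values at FLC was not tested.

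Around FLC, the H3K27me3 domain did not extend over the next genes on both sides. AT5G10120, 2 genes beyond the end of FLC and annotated as an ethylene insensitive 3 family gene, was covered by 98.1% to 100% in the 4 libraries and had 0.110 and 0.151 FPKM. AT5G10130, between it and FLC, was covered by 18.9% to 21.8%. UPSTREAM OF FLC had no H3K27me3 peak and an H3K4me3 cover of 84.2% and 56.8% in Col-0, against 82.7% and 83.5% in 4 × Col-0. MIPS3 was covered with H3K27me3 by 85.7% and 24.9% in Col-0, against 60.1% and 75.7% in 4 × Col-0, which overlapped. Beside the MAF cluster, AT5G65100, also annotated as an ethylene insensitive 3 family gene, was covered by 69.8% to 100% and had 0.045 FPKM or less. None of the neighbours tested for a mark was called, with adjusted p-values of 0.573 or more (limma).

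In Hi-C, DNA ends that are close in the nucleus are ligated and sequenced, so the share of a bin's contacts with other chromosomes, with distances of 50 kb to 3 Mb and with itself describes its surroundings. The members fall in 4 bins. FLC lies in chr5:3150001-3200000, FLM in chr1:28950001-29000000, and MAF2 to MAF4 with the first part of MAF5 in chr5:25950001-26000000. The next bin, chr5:26000001-26050000, holds the end of MAF5. The bins hold 13 to 19 genes of the table each, so a contact value belongs to the bin and not to the gene. The 4 libraries held 2753780 (Col-0 replicate 1), 19202025 (Col-0 replicate 2), 6153679 (4 × Col-0 replicate 1) and 25865519 (4 × Col-0 replicate 2) contacts, recovered as whole numbers from the balanced signal.

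The share of contacts between chromosomes at FLC was 38.5% and 38.2% in Col-0, against 41.6% and 41.1% in 4 × Col-0. Both libraries of 4 × Col-0 were above both of Col-0, as at 90.8% of all 2376 bins tested. The log2 difference was 0.11 (SE 0.04, adjusted p = 0.0472 with limma over all bins), past the threshold, as in 57.5% of the bins, all of them higher. The median difference over all bins was 0.13, and the FLC bin was not above it. The call was lost with unbalanced contacts (adjusted p = 0.0538), and without 4 × Col-0 replicate 1 (adjusted p = 0.321) or replicate 2 (adjusted p = 0.230), where 287 and 31 bins in place of 1366 were called, and 2233 were called without Col-0 replicate 1. Divided by the median bin of each library, its log2 difference was −0.03 (adjusted p = 0.577), and no bin was called. It lay at the 65th to 72nd percentile of all bins in each library. Of the unbalanced contacts, 973 of 2578 in Col-0 replicate 1 were between chromosomes, 37.7% with a 95% interval of 35.9% to 39.6% (Wilson), and 8903 of 22033 in 4 × Col-0 replicate 2, 40.4% with 39.8% to 41.1%. Such intervals cover counting error only.

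**Figure D4:**
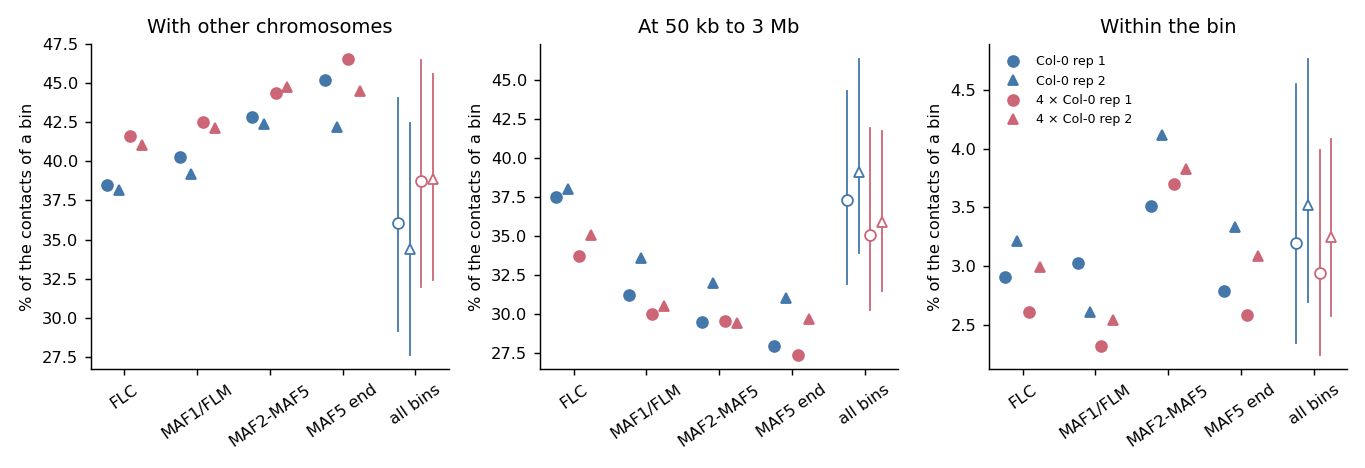
Share of the contacts of each bin with other chromosomes (left), at 50 kb to 3 Mb (middle) and within the bin (right), in percent of all its contacts, 1 point per library (axes do not start at 0). Open symbols and lines give the median and the range from the 10th to the 90th percentile of all bins, whose median moved from 36.1% and 34.4% in Col-0 to 38.7% and 38.9% in 4 × Col-0 for contacts between chromosomes, in the same direction as the bins of the family.

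The bins of the MAF genes moved less. At FLM the share between chromosomes was 40.3% and 39.2% in Col-0, against 42.5% and 42.1% in 4 × Col-0, a log2 difference of 0.09 (SE 0.05, adjusted p = 0.0858). At MAF2 to MAF5 it was 42.8% and 42.4% against 44.4% and 44.8%, a log2 difference of 0.07 (SE 0.04, adjusted p = 0.186). At the end of MAF5, 45.2% and 42.2% against 46.6% and 44.5% overlapped between the genotypes (log2 difference 0.06, SE 0.05, adjusted p = 0.267). The MAF2 to MAF5 bin was at the 84th to 90th percentile of all bins, the FLM bin at the 75th to 78th. None of the MAF bins was called, and whether they differ from the FLC bin was not tested. Without Col-0 replicate 1, the FLM bin (adjusted p = 0.0113) and the bin with the end of MAF5 (adjusted p = 0.0225) passed.

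Contacts at 50 kb to 3 Mb went the other way. At FLC they were 37.5% and 38.0% of the total in Col-0, against 33.7% and 35.1% in 4 × Col-0, and the 4 × Col-0 values were the lower ones without overlap, as at 80.2% of the bins. The log2 difference was −0.13 (SE 0.06, adjusted p = 0.0710, limma), which did not pass, where 10.3% of the bins were called, all of them lower. Without Col-0 replicate 1 the FLC bin passed (adjusted p = 0.0136), as did the 3 MAF bins, with 2056 bins in place of 244 called. As a mean over 3 bins the FLC difference was −0.11 (adjusted p = 0.0456). The median over all bins was −0.10, and relative to the median bin of each library the FLC difference was −0.026 (adjusted p = 0.844). The FLM bin had 31.2% and 33.6% against 29.996% and 30.6%, a log2 difference of −0.10 (adjusted p = 0.138). For MAF2 to MAF5 the shares of 29.5% and 32.0% overlapped with 29.6% and 29.5% (−0.06, adjusted p = 0.322), and those of the end of MAF5, 28.0% and 31.0%, with 27.4% and 29.7% (−0.05, adjusted p = 0.418). The 3 bins of the MAF genes were among the lowest of the genome for this class, at the 4th to 9th percentile, while FLC was at the 30th to 52nd. These 3 bins lie within 3 Mb of a chromosome end, so part of the distance range does not exist on one side. The FLC bin has the range on both sides. The part of position in these ranks was not tested.

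Contacts within the bin made up 2.90% and 3.22% at FLC in Col-0, against 2.61% and 2.99% in 4 × Col-0, with overlap, and a log2 difference of −0.13 (SE 0.18, adjusted p = 0.876). The other bins had 2.32% to 4.11%, with log2 differences of −0.21 at FLM, −0.02 at MAF2 to MAF5 and −0.11 at the end of MAF5 (adjusted p of 0.852 or more, limma). At FLM both values of 4 × Col-0 were below both of Col-0, as at 38.5% of the bins, while 1.02% had both above. None of the 4 was called, and 0.212% of 2363 bins were, 0.0423% higher and 0.169% lower in 4 × Col-0. The FLC values rested on 76 to 600 contacts per library.

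The contacts of the FLC bin were followed over 1 Mb on each side, as a description with no test of the difference between genotypes. With the adjacent bin toward lower coordinates, the signal per 10000000 was 247.1 and 275.8 in Col-0, against 248.0 and 254.1 in 4 × Col-0, and with the other adjacent bin 272.8 and 282.5 in Col-0, against 201.7 and 264.2 in 4 × Col-0. Relative to the mean of the same distance on the chromosome, the median over 40 bins was 0.96 and 0.95 in Col-0, against 0.90 and 0.93 in 4 × Col-0. The range of single bins was widest in the shallowest library, from 0.39 to 1.67, and narrowest in the deepest, from 0.75 to 1.20.

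**Figure D5:**
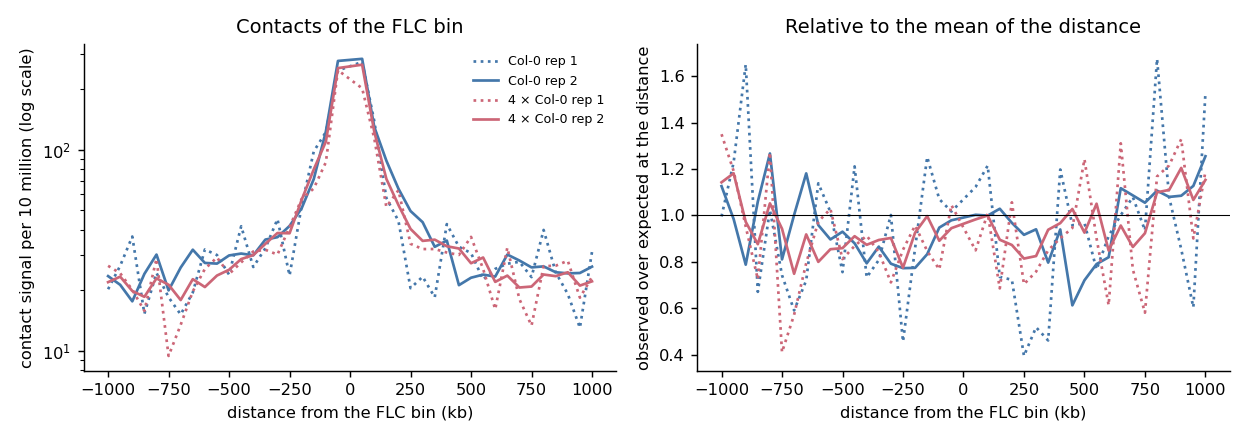
Contacts of the FLC bin with bins up to 1 Mb away, as signal per 10000000 on a log axis (left) and as a ratio to the mean of the distance (right), 1 line per library (solid, replicate 2; dotted, replicate 1). The dotted lines of the shallower replicates scatter more widely than the solid ones, and the medians of the ratio lie between 0.90 and 0.96.

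Contacts of the FLC bin with the bins of the other members were few, from 1 to 14 per library. FLC and FLM, on different chromosomes, shared 1 and 2 contacts in Col-0, against 3 and 10 in 4 × Col-0. Scaled to equal totals, this was 3.55 and 1.27 per 10000000 against 4.95 and 4.69. The difference of 2.41 rested on these single contacts, and over blocks of 3 by 3 bins it was −0.021 (exact permutation p = 1). FLC and the MAF2 to MAF5 bin, 22800 kb apart, shared 1 and 10 contacts in Col-0, against 1 and 6 in 4 × Col-0, or 3.18 and 5.53 against 1.45 and 2.41 per 10000000. FLC and the end of MAF5 had 7.70 and 8.38 against 5.12 and 2.67 per 10000000, from 2 to 14 contacts. Over blocks of 3 by 3 bins these differences were −1.14 for MAF2 to MAF5 and −0.25 for the end of MAF5, in place of −2.42 and −4.14. The exact permutation test over 4 libraries (two-sided) gave p = 0.333 for these 3 pairs, the smallest it can give, and 0.667 after adjustment over all 6 pairs. The pairs of FLM with the MAF bins, and the adjacent MAF bins, which shared 56 to 708 contacts, had an exact permutation p of 0.667 or more.

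The FLC bin was rich in H3K27me3, which covered 31.2% of it, at the 91.8th percentile of bins on chromosome arms, against 20.7% of the FLM bin and 2.05% of the MAF2 to MAF5 bin. Contacts with other bins rich in H3K27me3, the upper 20% at least 250 kb away on the same arm, were compared with those to the rest. At FLC the ratio to the distance mean was 1.00 and 1.20 for rich bins and 1.09 and 1.14 for the others in Col-0, and 1.21 and 1.17 against 1.15 and 1.11 in 4 × Col-0. The rich bins were higher in 3 of the 4 libraries and lower in Col-0 replicate 1. At FLM and at MAF2 to MAF5 the rich bins were lower in all 4 libraries, from 0.94 against 1.23 to 1.20 against 1.27 at FLM and from 1.12 against 1.20 to 1.12 against 1.16 at MAF2 to MAF5, and at the end of MAF5 in 3 of 4.

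Structure domains divide the genome by the sign of the first eigenvector of the contact map, where the positive side was set as the one richer in H3K4me3. Computed per chromosome, FLC was positive in 3 of 4 libraries, with −0.10 in Col-0 replicate 1. The MAF2 to MAF5 bin and the bin with the end of MAF5 were negative in Col-0 replicate 2, at −0.94 and −1.40. On chromosome 5 the eigenvector correlated with the arms, at 0.56 and 0.83 in Col-0, against 0.27 and 0.60 in 4 × Col-0. These values are over 465 bins that share libraries and distance. Whether the arms bear on the signs was not tested. Computed per chromosome arm, the 4 bins were positive in all 4 libraries. FLC had 1.73 and 0.78 in Col-0, against 0.54 and 1.18 in 4 × Col-0, in units of the SD over bins. Among the 202 bins of its arm, these values lay at the 87.1th and 43.6th percentile in Col-0 and at the 38.1th and 54.5th in 4 × Col-0. A positive value could thus lie below the middle of the arm. The share of positive bins was not counted, so the sign does not set the bins of the family apart. The sign was set by the correlation with H3K4me3, which on the arm of FLC was 0.59 to 0.66. On the arm of FLM it was 0.06 for replicate 1 of Col-0 and 0.52 to 0.71 for the others. On the arm of the MAF2 to MAF5 bin it was lowest for replicate 1 of 4 × Col-0, at 0.13, with 0.32 to 0.68 elsewhere. Per chromosome, on chromosome 5, it was lowest for replicate 2 of Col-0, at 0.15. Where it was low, the sign was only weakly set.

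The genes whose values were most like those of each member were sought over 10 values, the FPKM of both genotypes and the signal of both marks in 8 libraries, each scaled to an SD of 1. Nearest to FLC were the laccase gene IRX12 at a distance of 0.60, AT5G57130 at 0.66 and ANT, a regulator of organ growth, at 0.67, whose log2 FPKM differences were −0.32, 0.20 and 0.31, below that of FLC. The nearest genes were RAD23B to FLM, AT1G72740 to MAF2, AT2G22270 to MAF3, AT1G70950 to MAF4 and NET1C to MAF5, at distances of 0.20 to 0.44.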

How the data were processed

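Diploid Col-0 and 4 × Col-0 seedlings were compared by Hi-C, ChIP-seq and RNA-seq, with groups taken from the labels of the samples. The authors aligned reads to TAIR10, and how they combined the 3 RNA replicates into the deposited FPKM values (STAR, featureCounts) is not stated. Per the study's methods, the authors called peaks by Macs2 at default settings, anti-H3 reads serving as control; 1 list was deposited for each library, and the methods do not say whether reads were pooled. The lists deposited by the authors give the fold enrichment and the −log10 q-value of each peak. The deposited Hi-C signal was made by the authors with HiC-Pro and KR balancing in Juicer, in bins of 50 kb. The submitters' processing notes name BWA, HiC-Pro and R 3.4.1. Input libraries were not used here, and 0 columns of per-sample values were left unused.

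Peak signal per gene was the sum of fold times covered bases over gene length, tested as log2(signal + 1) with limma 3.58.1 in R 4.3.3 over all nuclear genes with a peak in 1 or more libraries of the mark. Hi-C shares were tested as log2 share over all bins, with Benjamini-Hochberg adjustment and a threshold of 0.05. Contacts were recovered as whole numbers, within 0.02 for 100% of low values. Single values were compared by exact permutation (scipy 1.17.1), and coding sequences were aligned with Biopython 1.88. FPKM was compared as log2(FPKM + 1), with no test. The 4 Hi-C libraries held 2753780 to 25865519 contacts, and 58.7% of bin pairs in the shallowest had none. Read depths of the ChIP and RNA libraries are not given in the sources used here.

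Named genes were the members, 3 annotated genes on each side of each locus, and the 3 nearest genes to FLC and 1 to each other member; of the pathway genes those past 2-fold were to be named, none was, and the pathway genes named here were chosen after their values were seen. Members, lists and tests were chosen with earlier results of these data known. The limma step was tested on simulated data with 200 changed features. Alternatives covered peak thresholds, gene windows, covered share, scaling, filters, unbalanced contacts, wider bins, replicate blocks and each library left out.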

Additional observations from a re-analysis of the deposited data

How the results depend on the processing

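No test called a member for H3K27me3 or H3K4me3 under any setting run, while directions near 0 turned. For FLC, the H3K27me3 difference (log2) was 0.0067 for covered share alone, 0.013 with libraries scaled to the same median, and −0.062 to 0.024 with each library left out in turn. The H3K4me3 difference of FLC was 0.00077 for covered share alone and −0.34 to 0.067 with a library left out. With a library left out, H3K27me3 ranged from 0 to 0.45 at MAF4 and from −0.42 to 0.13 at MAF5, and H3K4me3 at MAF5 from −0.0084 to 0.047. In place of 21 genes called for H3K27me3, there were 0 with 1 kb upstream added, 178 at a q-value of 1e-05 or less, 55 for covered share alone, 37 with scaling to the same median, 0 with the replicate block and 0 to 0 with a library left out. For H3K4me3, 1 gene was called for covered share alone and 8 with no filter in place of 0. Same-numbered libraries correlated in their deviations from the group means by 0.094 for H3K27me3, −0.18 for H3K4me3 and 0.12 to 0.27 for the Hi-C shares; with 2 pairs and no label of a shared batch, the numbers were not taken to pair libraries. For H3K4me3 the crossed pairing was tried after seeing the data and called 0 genes.

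For contacts between chromosomes, the FLC difference was 0.10 for unbalanced contacts (adjusted p = 0.0538, limma), −0.030 relative to the median bin, and 0.10 to 0.12 with a library left out (adjusted p of 0.0101 to 0.321). Division by the median bin, added after seeing the data, gave −0.048 for FLM, −0.074 for MAF2 to MAF5 and −0.081 for the end of MAF5, and called 0 bins in place of 1366; leaving a library out called 31 to 2233. At 50 kb to 3 Mb, the FLC difference was −0.11 as a mean over 3 bins (adjusted p = 0.0456), −0.13 with the replicate block (adjusted p = 0.00379) and −0.16 to −0.10 with a library left out. Relative to the median bin it was −0.026 for FLC, 0.010 for FLM, 0.049 for MAF2 to MAF5 and 0.061 for the end of MAF5, which ranged from −0.12 to 0.028 with a library left out. In place of 244 bins called, there were 381 with unbalanced contacts, 1049 over 3 bins, 3 up to 1 Mb, 1689 with the replicate block, 0 relative to the median bin and 2 to 2056 with a library left out. Within the bin, MAF2 to MAF5 had 0.034 as a share of the chromosome, 0.10 relative to the median bin and −0.13 to 0.10 with a library left out, and the end of MAF5 had 0.0069 and −0.24 to 0.016. In place of 5 bins called, there were 0 with unbalanced contacts, 2 as a share of the chromosome, 82 with the replicate block, 0 relative to the median bin and 5 to 16 with a library left out. The FLM bin passed between chromosomes over 3 bins (adjusted p = 0.0463) and at 50 kb to 3 Mb with the replicate block (adjusted p = 0.0263).

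With a pseudocount of 0.1, 1281 genes passed 2-fold in place of 334, MAF5 among them at 1.03. Over 3 by 3 bins, the differences in contacts per 10000000 were −0.021 for FLC with FLM, 0.16 for FLM with the end of MAF5 and −1.36 for the adjacent MAF bins. With a library left out, they ranged from −6.55 to 1.97 for FLM with MAF2 to MAF5, from −2.12 to 0.28 for FLM with the end of MAF5 and from −21.3 to 46.9 for the adjacent bins. With replicates summed, the per-chromosome eigenvector, as a mean over both genotypes, was −0.15 at MAF2 to MAF5 and −0.25 at the end of MAF5, in place of 0.35 and 0.13. The causes of these changes were not tested. Expression values in which the replicates are not separate, and few contacts between bins, limit what can be shown here.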
